A study of Bos taurus with 6 samples.

Results

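The immediate early response genes were examined in longissimus dorsi muscle, with 3 animals of the Shandong Black cattle breed (B) and 3 of the Luxi cattle breed (L). They are 10 genes chosen by name, namely FOS, FOSB, JUNB, ATF3, EGR1, EGR2, NR4A1, IER2, IER3 and MYC, and all 10 were found among the 17986 named genes of the files. All animals were 18 months old and each gave 1 RNA-Seq library. Shandong Black cattle were bred from Japanese black, Luxi and Bohai black cattle, and the Luxi are yellow cattle of local origin. No treatment was given to either group, and the muscle was frozen in liquid nitrogen after slaughter. The breeds came from different suppliers, so breed and source of the animals cannot be told apart. The labels give no sex for the animals, and the text of the study mentions a bull among the Shandong Black samples. XIST, the RNA made from the inactive X chromosome, stood at 4.83 to 14.0 FPKM in Shandong Black cattle and at 0 to 0.207 FPKM in Luxi cattle. Breed cannot be told apart from a difference in sex or from anything else that XIST marks here, and the sex of the animals was not tested.

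Immediate early genes are switched on within minutes of a stimulus such as a growth factor, contraction, injury or other stress, without new protein being made first. Signals pass through MAP kinases to factors such as SRF and CREB that already sit in the cell, and the transcripts that are made decay quickly. Most of the products are transcription factors. FOS, FOSB and JUNB are subunits of the AP-1 factor and ATF3 is a related leucine zipper protein. EGR1 and EGR2 are zinc finger factors, NR4A1 is an orphan nuclear receptor, MYC drives genes of growth and ribosome production, and IER2 and IER3 are small proteins of the early response. In skeletal muscle many of these genes are known to rise after exercise.

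Gene levels are in FPKM, which scales the fragments of a transcript by its length and by the size of the library and so allows genes of different length to be compared. The aligned sequence per library came to 14.1 to 14.6 gigabases in Shandong Black cattle and 17.5 to 17.99 gigabases in Luxi cattle. Muscle fibre markers (11 of 11 listed) were abundant in every animal. Their summed level was 46894 to 57897 FPKM in Shandong Black cattle. In Luxi cattle it was 76457 and 66917 FPKM in replicates 2 and 3 but 24796 FPKM in replicate 1. ACTA1 was the largest part of this sum, at 12237 FPKM in that replicate and 32188 to 54910 FPKM in the other 5 animals. CKM, MYH7 and DES were also lowest there. The other markers, namely MB (7894 FPKM), TTN (625 FPKM), TNNT3 (585 FPKM), TNNT1, PYGM, MYH1 and MYH2, were not lowest in the Luxi cattle replicate 1. This animal stood apart in other lists as well. Its smooth muscle and pericyte markers (5 of 5 listed) added up to 246 FPKM against 38.5 to 70.9 FPKM in the other 5 animals, and its endothelial markers (7 of 8 listed) to 79.6 FPKM against 25.1 to 42.3 FPKM. Log2 fold changes of the members that this animal moved by over 1.5 times, or whose direction or call it changed, are given with and without it, and so are the main values of their spread and correlation. Between the breeds, adipocyte markers (5 of 5 listed) summed to 109 to 173 FPKM in Shandong Black cattle and 2.04 to 17.3 FPKM in Luxi cattle, with LEP at 0 in the Luxi cattle replicate 1. Fibroblast markers (5 of 5 listed) summed to 106 to 157 and 353 to 467 FPKM. Most of this difference lay in the collagens COL3A1 (means of 22.0 and 177 FPKM) and COL1A1 (29.9 and 93.4 FPKM). The breeds overlapped in DCN (68.3 and 107 FPKM) and LUM (7.23 and 8.55 FPKM), and PDGFRA had means of 8.10 and 10.8 FPKM. Satellite cell markers (3 of 4 listed) summed to 3.73 to 5.89 FPKM in Shandong Black cattle and to 2.94, 10.3 and 10.1 FPKM in Luxi cattle, and neutrophil markers (4 of 6 listed) to 0.416 to 0.492 FPKM and to 1.51, 0.848 and 4.12 FPKM, with CXCR2 at 0 in all Luxi animals. Macrophage markers (6 of 6 listed) summed to 9.35 to 13.7 and 7.39 to 13.3 FPKM, T and B cell markers (4 of 5 listed) to 1.26 to 2.08 and 0.331 to 1.3 FPKM, and red blood cell markers (3 of 5 listed) to 0.494 to 0.734 and 0.583 to 1.42 FPKM. In bulk muscle, fewer cells of a type and less RNA per cell cannot be told apart, and the part of these differences in the results that follow was not tested.

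No member was called as different between the breeds. In a limma test on log2(FPKM + 1), adjusted by Benjamini-Hochberg over the 9767 genes with a mean of at least 1 FPKM in at least 1 breed, 0 of the 10 members met both criteria of a call, an adjusted p under 0.05 and a log2 fold change of 1 or more in size, and 2 (NR4A1 and EGR2) had an unadjusted p under 0.05. Over all genes tested, 252 were called, which is 2.58%, and 21.9% had an unadjusted p under 0.05. On average 4 of the 10 members were higher in Luxi cattle (NR4A1, ATF3, FOSB and JUNB) and 6 were lower (FOS, EGR2, IER3, EGR1, MYC and IER2), with a median log2 fold change of -0.18 against 0.13 over all genes tested. Of all 9767 genes tested, 6110 were higher and 3657 lower. The breeds did not overlap for 1 of the 10 members, FOS, against 29.2% of all genes tested. Every Luxi animal was below every Shandong Black animal in FOS, as in 9.14% of all genes tested, and the opposite order, seen in 20% of them, was found in no member. The count of members with every Luxi animal lower depended on the scale, with 2 in TPM (FOS and EGR2), against 11.6% of all genes tested, and 3 with size factors (FOS, EGR2 and IER3), against 14.4%. With size factors in place of plain FPKM the median of all genes moved from 0.13 to 0.01, while the same 4 members were higher and 6 were lower.

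**Figure D1:**
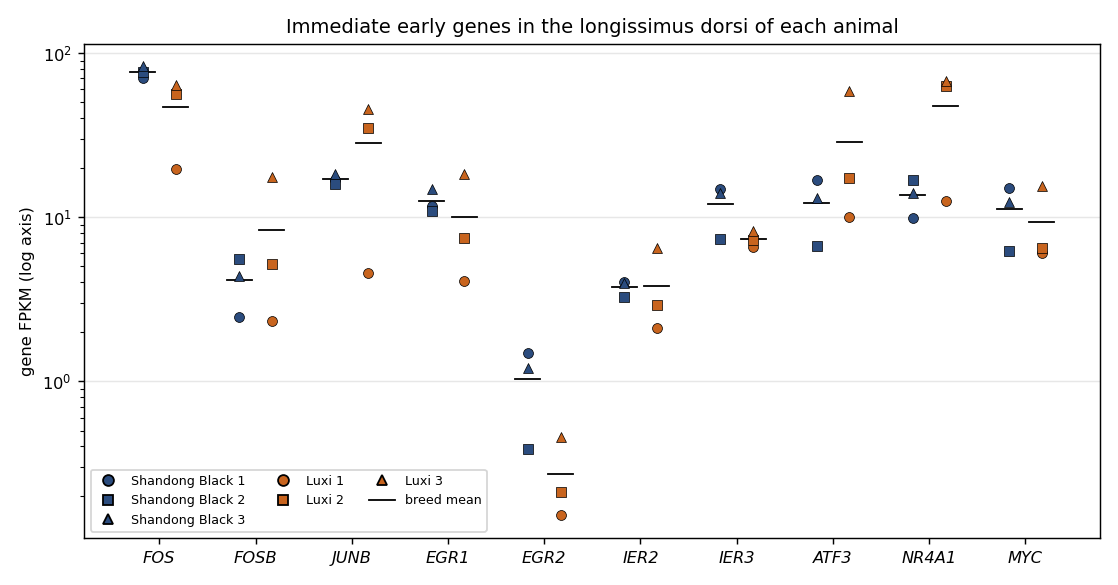
Gene FPKM (log axis) of the 10 immediate early genes in each of the 6 animals, with Shandong Black cattle in blue and Luxi cattle in orange. Marker shapes give the replicate and black lines the breed means. FOS was the only gene whose breeds did not overlap in FPKM, and the Luxi cattle replicate 1 (orange circle) was the lowest animal for 8 of the 10 genes.

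FOS was the most abundant member in all 3 Shandong Black cattle. It lies on chromosome 10 (ARS-UCD1.2, 86488949 to 86492375, plus strand, 4 exons) and encodes the AP-1 subunit that pairs with JUN proteins. Its level was 70.1, 77.0 and 82.9 FPKM in Shandong Black cattle 1 to 3 and 19.7, 56.4 and 64.1 FPKM in Luxi cattle 1 to 3. The Shandong Black animals lay close together, whereas the Luxi cattle replicate 1 was far below the other Luxi animals. The means were 76.7 ± 6.38 FPKM and 46.7 ± 23.7 FPKM (SD, n = 3 each). The log2 fold change of Luxi over Shandong Black cattle was -0.86 (SE, the standard error, 0.44, 95% interval -1.90 to 0.17), which was not called (limma adjusted p = 0.299). In a two-sided permutation test the exact p was 0.1, the smallest that 3 against 3 animals can give. Without the Luxi cattle replicate 1 the log2 fold change was -0.34 (limma adjusted p = 0.268).

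FOSB, a close relative of FOS that is likewise an AP-1 subunit, was far less abundant. The gene lies on chromosome 18 (53074343 to 53081311, plus strand). Levels were 2.47, 5.57 and 4.36 FPKM in Shandong Black cattle and 2.33, 5.15 and 17.5 FPKM in Luxi cattle. The breeds overlapped, and by these levels the Luxi cattle replicate 3 alone stood above all Shandong Black animals. A transcript assembled at the gene on its own strand but left out of its sum held 1.68 FPKM in the Luxi cattle replicate 2. The log2 fold change was 0.54 (SE 0.59, 95% interval -0.83 to 1.92; limma adjusted p = 0.619; exact permutation p = 0.7), and it became -0.13 without the Luxi cattle replicate 3, 1.10 without the Luxi cattle replicate 1 and 0.29 without the Shandong Black cattle replicate 1. The high value of the Luxi cattle replicate 3 came mostly from transcripts assembled on the exons of the gene. Reference transcripts made up 18.7% of its FOSB and 22.4 to 85.8% in the other 5 animals. From reference transcripts alone the levels were 0.55, 3.13 and 2.21 FPKM in Shandong Black cattle and 1.52, 4.42 and 3.28 FPKM in Luxi cattle, so the high value was not seen there.

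JUNB differed most between the breeds in its spread rather than in its mean. This single-exon gene on chromosome 7 (12736074 to 12737893, minus strand) encodes an AP-1 partner of the FOS proteins. It stood at 16.8, 15.9 and 18.4 FPKM in Shandong Black cattle, a narrow range. In Luxi cattle it was 4.58, 35.2 and 45.4 FPKM, with 1 animal below and 2 animals above all Shandong Black cattle. Over all animals the log2 fold change was 0.23 (SE 0.73, 95% interval -1.49 to 1.95; limma adjusted p = 0.881; exact permutation p = 1). Without the Luxi cattle replicate 1 it was 1.19 and was called (limma adjusted p = 0.024). In that comparison 6.19% of all genes were called, and with size factors or TPM the log2 fold change without this animal was 0.99 and 0.93, below the threshold of 1. Leaving out replicate 2 or 3 of the Luxi cattle instead turned the direction, to -0.16 and -0.34.

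ATF3, which is induced by many kinds of cell stress and can repress its target genes, overlapped between the breeds. The gene is on chromosome 16 (70924499 to 70937427, minus strand). Shandong Black cattle had 16.8, 6.67 and 13.1 FPKM and Luxi cattle 9.95, 17.3 and 58.5 FPKM. The Luxi cattle replicate 3 again held the highest level, and the lowest was in the Shandong Black cattle replicate 2. The difference in log2 was 0.88 (SE 0.62, 95% interval -0.58 to 2.33; limma adjusted p = 0.436; exact permutation p = 0.4). It was 1.41 without the Luxi cattle replicate 1, 0.19 without the Luxi cattle replicate 3 and 0.53 without the Shandong Black cattle replicate 2, and was called in none of these 3 fits. Some ATF3 signal lay in assembled transcripts with under 50% of their bases on its exons, which were not counted. They held 4.86 FPKM in the Shandong Black cattle replicate 2 and 8.03 FPKM in the Luxi cattle replicate 1, the animals with the lowest ATF3 of each breed.

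EGR1 and EGR2 were both lower on average in Luxi cattle, and neither was called. EGR1, a zinc finger factor that itself switches on later genes, lies on chromosome 7 (49826725 to 49829568, plus strand, 2 exons). Its level was 11.6, 11.0 and 14.8 FPKM in Shandong Black cattle and 4.08, 7.42 and 18.4 FPKM in Luxi cattle. The Luxi animals lay on both sides of the Shandong Black range. Luxi over Shandong Black cattle, this was a log2 fold change of -0.51 (SE 0.46, 95% interval -1.58 to 0.56; limma adjusted p = 0.543; exact permutation p = 0.5), with -0.07 without the Luxi cattle replicate 1 and -1.03 without the Luxi cattle replicate 3.

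EGR2, known for its part in nerve myelination and in lymphocytes, was the least abundant member in every animal. It lies on chromosome 28 (18936196 to 18940149, minus strand). The levels were 1.49, 0.39 and 1.2 FPKM in Shandong Black cattle and 0.15, 0.21 and 0.46 FPKM in Luxi cattle. A single Shandong Black animal, replicate 2, fell within the Luxi range in FPKM. With means of 1.03 ± 0.574 and 0.274 ± 0.163 FPKM (SD, n = 3 each), the gene entered the test only through the breed in which it was higher. For EGR2 the log2 fold change was -0.63 (SE 0.26, 95% interval -1.24 to -0.03; limma adjusted p = 0.211; exact permutation p = 0.2). At these low levels the value depended on the scale, at -1.51 with a pseudocount of 0.1 and -1.11 in TPM, neither of them called. The reference transcript was listed only in replicates 1 and 3 of the Shandong Black cattle, and the rest of the EGR2 signal came from transcripts assembled on its exons.

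NR4A1 had the largest log2 fold change among the members on the log2(FPKM + 1) scale, whereas with a pseudocount of 0.1 EGR2 (-1.51) was as large in size as NR4A1 (1.503). This nuclear receptor gene, which in muscle is known to respond to exercise and adrenergic signals, lies on chromosome 5 (27822914 to 27839686, minus strand). It stood at 9.81, 16.9 and 14.1 FPKM in Shandong Black cattle and at 12.5, 63.4 and 67.5 FPKM in Luxi cattle. Replicates 2 and 3 of the Luxi cattle were each above every Shandong Black animal, and the Luxi cattle replicate 1 lay inside the Shandong Black range. The means were 13.6 ± 3.55 and 47.8 ± 30.7 FPKM (SD, n = 3 each). The log2 fold change of 1.45 (SE 0.61, 95% interval 0.02 to 2.89) was not called (limma adjusted p = 0.224; exact permutation p = 0.3).

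Without the Luxi cattle replicate 1, NR4A1 had a log2 fold change of 2.22 and was called (limma adjusted p = 0.015). It was also called without this animal in TPM, at 1.99 (limma adjusted p = 0.021), and with size factors, at 2.02 (limma adjusted p = 0.023), where 4.16% and 4.84% of all genes were called. Over the 18 alternatives tried the log2 fold change of NR4A1 was above 0 each time, from 1.05 to 2.22, with limma adjusted p between 0.015 and 0.462. Some of them (no filter, a mean of at least 5 FPKM, no trend, the replicate block and the threshold of 2) cannot move this value. All reuse the same animals, so a shared direction is no separate support. The 3 fits without the Luxi cattle replicate 1 share the remaining 5 animals and are not independent of each other.

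NR4A1 was also the member with the most varied transcripts, with 5 reference transcripts listed. Transcript rna14257 made up 82.3%, 23.7% and 64.8% of its FPKM in Shandong Black cattle and 57.2%, 53.8% and 53.9% in Luxi cattle. The share of rna14254 was 1.23 to 2.73% in Shandong Black cattle and 35.9%, 8.79% and 3.92% in Luxi cattle. The breeds did not overlap in this share, which was highest in the Luxi cattle replicate 1, the Luxi animal with the lowest NR4A1. A further transcript, rna14255, varied within both breeds, from 11.3 to 31.4% and from 4.55 to 36.1%. StringTie divides reads of shared exons between such transcripts, so these shares are estimates. Transcripts assembled at NR4A1 on its own strand but left out of its sum held 6.43 and 0.33 FPKM in the Shandong Black cattle replicates 2 and 3. In the Luxi cattle replicates 1 and 2 they held 4.19 and 7.31 FPKM.

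**Figure D2:**
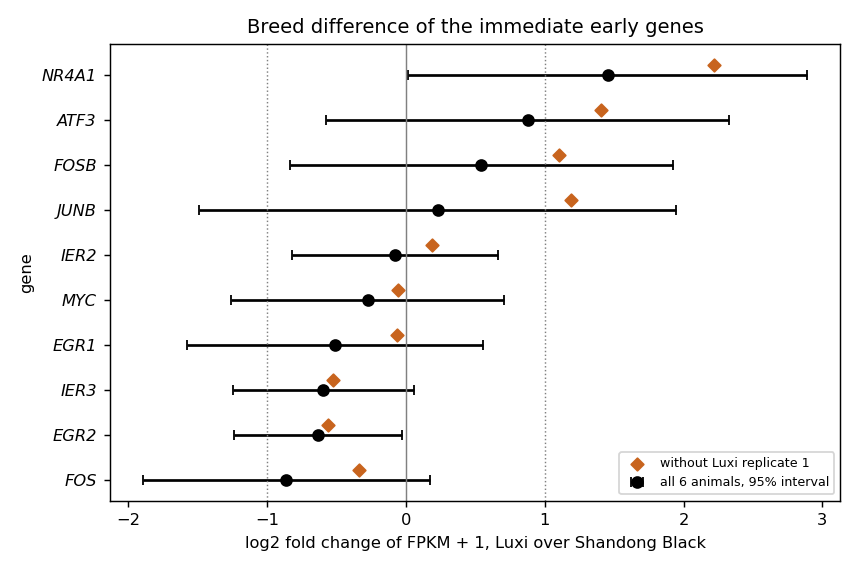
Log2 fold change of FPKM + 1, Luxi over Shandong Black cattle, for each gene. Black points with bars give the value over all 6 animals with its 95% interval, orange diamonds the value without the Luxi cattle replicate 1, and dotted lines a log2 fold change of 1 in either direction. The diamond lies to the right of the point for all 10 genes, from 1.45 to 2.22 for NR4A1 and from 0.23 to 1.19 for JUNB.

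IER2 and IER3 share a name but not a pattern. IER2, a nuclear protein gene of the early response, lies on chromosome 7 (minus strand), with its main transcript at 12433854 to 12435630. It had 4.03, 3.26 and 3.97 FPKM in Shandong Black cattle and 2.11, 2.90 and 6.46 FPKM in Luxi cattle. The Luxi animals lay on both sides of the Shandong Black range, and the log2 fold change was -0.08 (SE 0.32, 95% interval -0.82 to 0.67; limma adjusted p = 0.908; exact permutation p = 0.9). It was -0.44 when the Luxi cattle replicate 3 was left out and 0.19 when replicate 1 was, the ends of the range over the 6 animals. In the Luxi cattle replicate 1 most of the signal, 1.48 of 2.11 FPKM, was given to a longer transcript with 2 exons that was not listed in any other animal. Transcripts assembled near the gene on its own strand but left out of its sum held 0.57 to 3.48 FPKM, which is up to a size like that of IER2 itself.

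IER3, which is known to modulate survival signals, lies on chromosome 23 (28284912 to 28286183, plus strand, 2 exons). It stood at 14.9, 7.35 and 14.0 FPKM in Shandong Black cattle and at 6.56, 7.26 and 8.22 FPKM in Luxi cattle. Here the Luxi animals were the ones that lay close together, and the Shandong Black cattle replicate 2 fell among them. For IER3 the log2 fold change was -0.60 (SE 0.28, 95% interval -1.25 to 0.06; limma adjusted p = 0.262; exact permutation p = 0.2).

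MYC, on chromosome 14 (12653171 to 12659616, minus strand), varied to a like degree in both breeds. Its level was 14.96, 6.25 and 12.3 FPKM in Shandong Black cattle and 6.05, 6.45 and 15.5 FPKM in Luxi cattle. Each breed had animals near 6 FPKM and animals above 12 FPKM. For MYC the log2 fold change was -0.28 (SE 0.42, 95% interval -1.26 to 0.71; limma adjusted p = 0.736; exact permutation p = 0.9). Every animal moved it by over 1.5 times when left out, to between -0.04 (without the Shandong Black cattle replicate 1) and -0.67 (without the Luxi cattle replicate 3), with -0.06 without the Luxi cattle replicate 1.

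The order of the members differed between animals. FOS ranked first among the 10 in all 3 Shandong Black cattle and in the Luxi cattle replicate 1, and NR4A1 ranked first in the Luxi cattle replicates 2 and 3. EGR2 ranked last in all 6 animals. In the Shandong Black cattle FOS was 70.1 to 82.9 FPKM while no other member passed 18.4 FPKM. In the Luxi cattle replicate 3, by contrast, FOS, NR4A1, ATF3 and JUNB all lay between 45.4 and 67.5 FPKM. The summed FPKM of the 10 members was 163, 150 and 179 in Shandong Black cattle and 68.1, 202 and 302 in Luxi cattle. The FPKM of all transcripts also summed lowest and highest in the Luxi cattle replicates 1 and 3. It came to 331764, 348889 and 351807 in Shandong Black cattle and to 297351, 408341 and 421765 in Luxi cattle. The part of this library scale in the order, spread and correlations of the members, which are in FPKM, was not tested.

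A pattern shared by most members was a low Luxi cattle replicate 1 and a high Luxi cattle replicate 3. The Luxi cattle replicate 1 was the lowest of the 6 animals for 8 of the 10 members, against 23.4% of all genes tested. The exceptions were ATF3, lowest in the Shandong Black cattle replicate 2, and NR4A1, lowest in the Shandong Black cattle replicate 1. The count depended on the scale, with 7 members lowest in this animal after size factors and 5 in TPM. The Luxi cattle replicate 3 was the highest for 7 members, against 22.3% of all genes tested, and for 6 on either other scale. Both shares of all genes were taken in FPKM only, so they do not serve for the counts on the other scales. FOS was highest in the Shandong Black cattle replicate 3, and EGR2 and IER3 in the Shandong Black cattle replicate 1. The Luxi cattle replicate 1 is the animal with the high sums of vascular markers given above. It also had the low sum of muscle fibre markers, which was low in ACTA1 but not in every marker. The part of these in its low values was not tested.

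**Figure D3:**
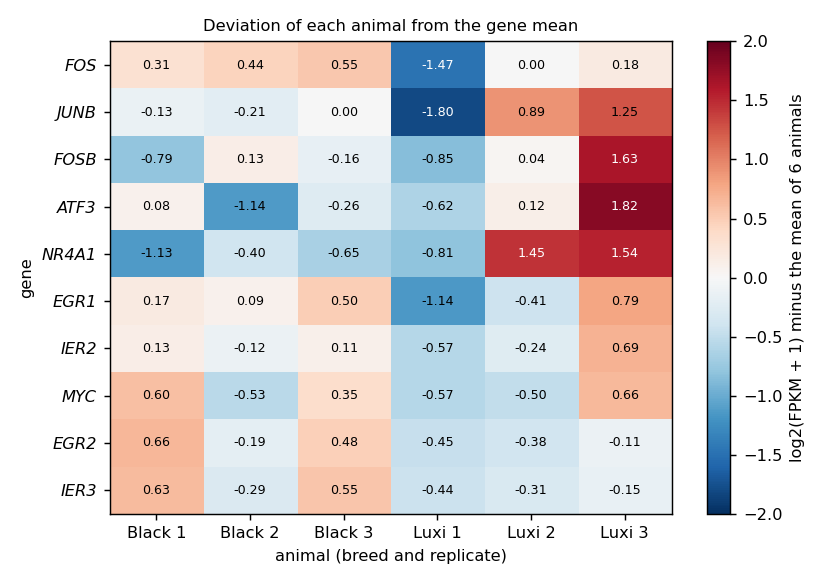
Deviation of log2(FPKM + 1) in each animal (columns) from the mean of the 6 animals for each gene (rows), with red above and blue below the mean. The Luxi cattle replicate 1 is below the mean in every row, down to -1.80 for JUNB, and the Luxi cattle replicate 3 is above it in all rows but those of EGR2 and IER3, up to 1.82 for ATF3.

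The SD of log2(FPKM + 1) within Luxi cattle was larger than within Shandong Black cattle for 8 of the 10 members, as it was for 68.2% of all genes tested. Its median over the members was 0.94 in Luxi cattle and 0.41 in Shandong Black cattle, and over all genes tested 0.31 and 0.19. A Luxi SD of 0.9 or more was found in 6 of 10 members (FOS, FOSB, JUNB, EGR1, ATF3 and NR4A1) and in 5.35% of all genes tested. JUNB had the widest contrast, with an SD of 0.10 in Shandong Black cattle, at the 23.1 percentile of all genes, and of 1.67 in Luxi cattle, at the 99.1 percentile. Its highest Luxi animal had 9.92 times the FPKM of its lowest, against 1.16 times in Shandong Black cattle. IER3 had the larger SD in Shandong Black cattle, at 0.51 against 0.14. EGR2 did so as well (0.45 against 0.18), but its Luxi levels lay under the pseudocount of 1, which keeps a log2 SD small, and its highest animal had 3.87 times the FPKM of its lowest in Shandong Black cattle and 3.02 times in Luxi cattle. Without EGR2 the median SD of the other 9 members was 0.98 in Luxi cattle and 0.37 in Shandong Black cattle.

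Leaving out replicate 1 lowered the Luxi spread most in FOS, JUNB and NR4A1, and it did not lower that of EGR2, IER2 and MYC. Over the other 2 Luxi animals the median SD of the 10 members was 0.46, against 0.18 over all genes tested, and 2 members (FOSB and ATF3) had an SD of 0.9 or more, against 2.84% of all genes. The SD of JUNB was then 0.25 and those of FOS and NR4A1 were 0.13 and 0.06, while FOSB stayed at 1.13 and ATF3 at 1.202. EGR1, IER2 and MYC were at 0.85, 0.66 and 0.81, against 0.98, 0.65 and 0.69 over all 3 Luxi animals. The spread without the Luxi cattle replicate 2 or 3 was not taken. Without replicate 1 the Luxi SD, over 2 animals, was larger than the Shandong Black SD, over 3 animals, for 7 of the 10 members. It was larger for 46.7% of all genes. These SDs rest on unlike numbers of animals, and the part of this in the drop was not tested. All are descriptions over 3 animals a breed, or 2 Luxi animals without replicate 1, with no test of the difference in spread.

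**Figure D4:**
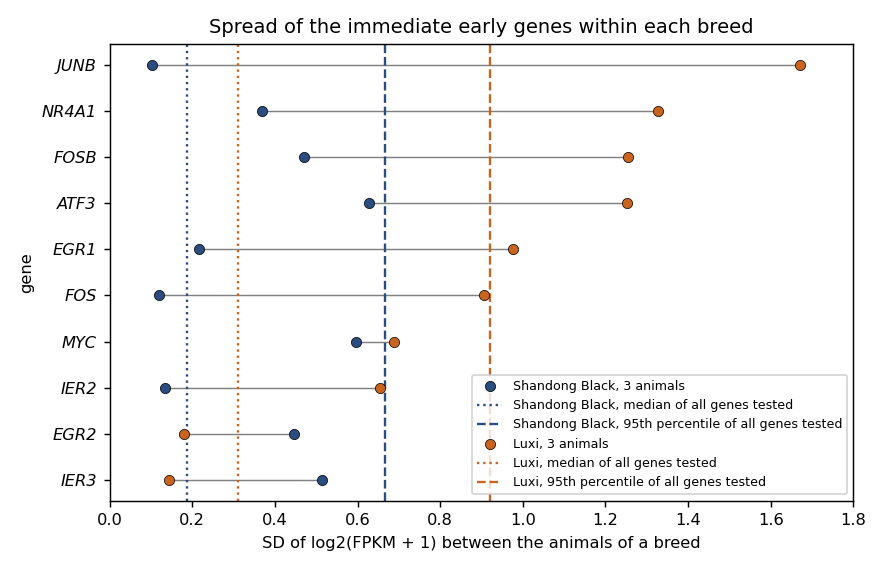
SD of log2(FPKM + 1) between the 3 animals of each breed for each gene, with Shandong Black cattle in blue and Luxi cattle in orange. Dotted lines mark the median and dashed lines the 95th percentile of all 9767 genes tested in the breed of the same colour. FOSB, JUNB, EGR1, ATF3 and NR4A1 lie past the Luxi 95th percentile of 0.92, and EGR2, whose low levels keep its SD small, and IER3 lie below the Luxi median of 0.31.

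Across the 6 animals the members followed each other in part. The median Pearson r over the 45 pairs of members was 0.58, and 0.74 after the breed means were removed. These values describe 6 animals that share their libraries and are given with no p. FOS and JUNB had an r of 0.69 over the animals and of 0.99 after removal of the breed means. For FOS and NR4A1 the r was 0.13 and 0.98. EGR1 and IER2 had an r of 0.93, and EGR2 and IER3 of 0.99. EGR2 and IER3 went with NR4A1 least, at -0.49 and -0.46. Several of these values rested on the Luxi cattle replicate 1. Over the 5 animals without it the median r was 0.32, and 0.61 after the breed means were removed. FOS and JUNB then had an r of -0.77, and of 0.75 within the breeds, and FOS and NR4A1 of -0.79 and 0.63. Without it EGR1 and IER2 (0.90) and EGR2 and IER3 (0.99) stayed close.

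With all 6 animals, the 5 other genes whose profile was most like the mean standardized profile of the members over the 6 animals were SLC35C2 (r = 0.991), CAST (0.985), ESRRA (0.981), RPL15 (0.980) and MTX2 (0.980). SLC35C2 encodes a nucleotide sugar transporter relative, CAST the calpain inhibitor calpastatin, ESRRA a nuclear receptor of energy metabolism, RPL15 a ribosomal protein and MTX2 a mitochondrial outer membrane protein. The mean profile stood at 0.31, -0.33 and 0.39 SD units in Shandong Black cattle and at -1.29, -0.14 and 1.06 SD units in Luxi cattle. These genes moved over a narrower range than the members, for example CAST from 21.8 FPKM in the Luxi cattle replicate 1 to 31.5 FPKM in the Luxi cattle replicate 3.

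Coverage along FOS and signal on the opposite strand were compared as a look at its transcripts. In FOS the coverage of the first exon was 3.48, 3.58 and 3.84 times that of the last exon in Shandong Black cattle and 2.48, 3.18 and 3.21 times in Luxi cattle, so the breeds did not overlap in this ratio. Transcripts assembled on the strand opposite to FOS amounted to 8.43%, 9.04% and 8.85% of its FPKM in Shandong Black cattle and to 2.17%, 4.60% and 5.35% in Luxi cattle. Both measures were lowest in the Luxi cattle replicate 1, the animal with the lowest FOS. The same ratio was taken for EGR1 and IER3. In EGR1 the first exon had 0.51 to 0.68 times the coverage of the last exon in Shandong Black cattle and 0.26 to 0.38 times in Luxi cattle, again without overlap. In IER3 the breeds overlapped, at 0.354, 0.208 and 0.360 times and at 0.296, 0.302 and 0.313 times. These ratios were taken for 3 members only and were not set against those of other genes.

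The wider pathway was described through 6 lists of 99 genes, of which 95 were listed in the files and 84 were tested. In these lists 60 genes were higher and 24 lower on average in Luxi cattle, where 6110 of all 9767 genes tested were higher and 3657 lower. In the lists 2 were called higher and 2 called lower, and the median log2 fold change was 0.25 against 0.13 over all genes tested. In all genes tested 1.55% were called higher and 1.03% called lower. JUN, the partner of FOS in AP-1, was not analysed here.

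Among the AP-1 partners 9 genes were tested, and 1 was called, lower in Luxi cattle. MAFK, a small MAF protein that lacks an activation domain, stood at 6.19, 2.49 and 5.28 FPKM in Shandong Black cattle and at 0.93, 1.07 and 0.41 FPKM in Luxi cattle. With means of 4.65 and 0.80 FPKM, MAFK entered the test only through the breed in which it was higher. The breeds did not overlap, and its log2 fold change was -1.60 (SE 0.30, limma adjusted p = 0.042). The call was lost without the Shandong Black cattle replicate 1 or 3 or the Luxi cattle replicate 2 or 3, up to a limma adjusted p of 0.176. It was also lost without a filter on FPKM, with reference transcripts only and with a replicate block. JDP2 and FOSL2, with log2 fold changes of 0.78 and 0.67, had the highest values of the list and were not called, nor was MAFF at -0.58.

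Of the EGR, NR4A and KLF relatives 12 were tested, 11 were higher on average in Luxi cattle, 0 were called by limma and 3 had an unadjusted p under 0.05. KLF10, a zinc finger gene induced early by TGF-beta, had 6.87, 11.7 and 7.51 FPKM in Shandong Black cattle and 11.9, 79.3 and 58.5 FPKM in Luxi cattle. Like NR4A1, it was lowest among the Luxi animals in replicate 1, and its log2 fold change of 2.06 was not called over all animals (limma adjusted p = 0.129) and was called without this animal. KLF9, at 1.61, rested on the Luxi cattle replicate 1, with 53.7 FPKM there and 0.63 to 3.56 FPKM in the other animals. The lowest of the list were NAB1, a corepressor of EGR proteins, at -0.01 and KLF5 at 0.11.

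In the list of other rapidly induced genes 25 were tested, with 17 higher and 8 lower on average in Luxi cattle, 1 called higher and 1 called lower. GADD45G, a stress-induced growth arrest gene, stood at 4.83, 3.40 and 4.72 FPKM in Shandong Black cattle and at 19.9, 16.6 and 26.5 FPKM in Luxi cattle. The breeds were far apart, and the log2 fold change was 2.03 (SE 0.23; limma adjusted p = 0.014). It was called in 4 of 6 fits that left out 1 animal, the exceptions being those without the Shandong Black cattle replicate 1 or 3, where the limma adjusted p reached 0.084. CITED2, a transcriptional coregulator, had 18.1, 46.8 and 31.5 FPKM in Shandong Black cattle and 7.27, 5.39 and 9.82 FPKM in Luxi cattle. The log2 fold change of CITED2, -1.90 (SE 0.37; limma adjusted p = 0.045), was called in 1 of 6 such fits, the one without the Luxi cattle replicate 1. Its call was also lost without a filter on FPKM, with reference transcripts only and with a replicate block. The levels of ZFP36, which encodes a protein that speeds the decay of early response mRNAs, did not overlap between the breeds, at 12.04 to 14.7 FPKM in Shandong Black cattle and 24.5, 56.8 and 69.8 FPKM in Luxi cattle. ZFP36 was not called, its log2 fold change being 1.68 (limma adjusted p = 0.067), but was called in TPM, at 1.60 (limma adjusted p = 0.042), and without the Luxi cattle replicate 1, at 2.12 (limma adjusted p = 0.011). SGK1, a kinase induced by serum and glucocorticoids, was at -0.63.

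The phosphatases and other feedback inhibitors of the MAP kinases had 5 of 12 tested genes higher and 7 lower on average in Luxi cattle, with 0 called by limma and 3 at an unadjusted p under 0.05. Their median log2 fold change was -0.14, where the other 5 lists had medians above 0, and with size factors 2 were higher and 10 lower. DUSP4 and DUSP10, which remove phosphate from MAP kinases, had log2 fold changes of -0.88 and -0.76, with breeds that did not overlap (limma adjusted p = 0.109 and 0.134). DUSP4, with means of 2.38 and 0.78 FPKM, entered the test only through the breed in which it was higher. The highest of the list were ERRFI1 at 0.76, which was called at 1.04 without the Luxi cattle replicate 1 (limma adjusted p = 0.045), and SPRY4 at 0.39.

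The inducing kinases and serum response factors had 15 of 19 tested genes higher on average in Luxi cattle, 12 of 19 with size factors, with 0 called by limma and 3 at an unadjusted p under 0.05. RPS6KA3, a ribosomal S6 kinase downstream of ERK, stood at 7.47 to 8.84 FPKM in Shandong Black cattle and at 14.0, 23.8 and 33.8 FPKM in Luxi cattle, without overlap. It was not called, its log2 fold change being 1.33 (limma adjusted p = 0.072), but was called in TPM, at 1.27 (limma adjusted p = 0.043), and without the Luxi cattle replicate 1, at 1.65 (limma adjusted p = 0.016). Without this animal SRF and its partner ELK1 were called too, ELK1 at 1.01 (limma adjusted p = 0.021). Over all animals ELK1 was at 0.74, and the kinases MAP2K1 and MAP2K2 were at -0.45 and -0.07.

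Among the partners of MYC 7 were tested, 6 of them higher on average in Luxi cattle, and their median log2 fold change was 0.72. MNT, which competes with MYC for the shared partner MAX, was called. It had 1.24, 0.51 and 1.42 FPKM in Shandong Black cattle and 5.61, 5.85 and 3.33 FPKM in Luxi cattle, and the log2 fold change was 1.53 (SE 0.26; limma adjusted p = 0.034). The call held without the Luxi cattle replicate 1 or 3 and was lost without any other single animal, up to a limma adjusted p of 0.121. It was also lost in TPM, without a filter on FPKM and with a replicate block. MAX itself was at 1.12, MGA at 0.54 and MXI1 at -0.23, none of them called, though MAX was called at 1.57 without the Luxi cattle replicate 1 (limma adjusted p = 0.030).

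**Figure D5:**
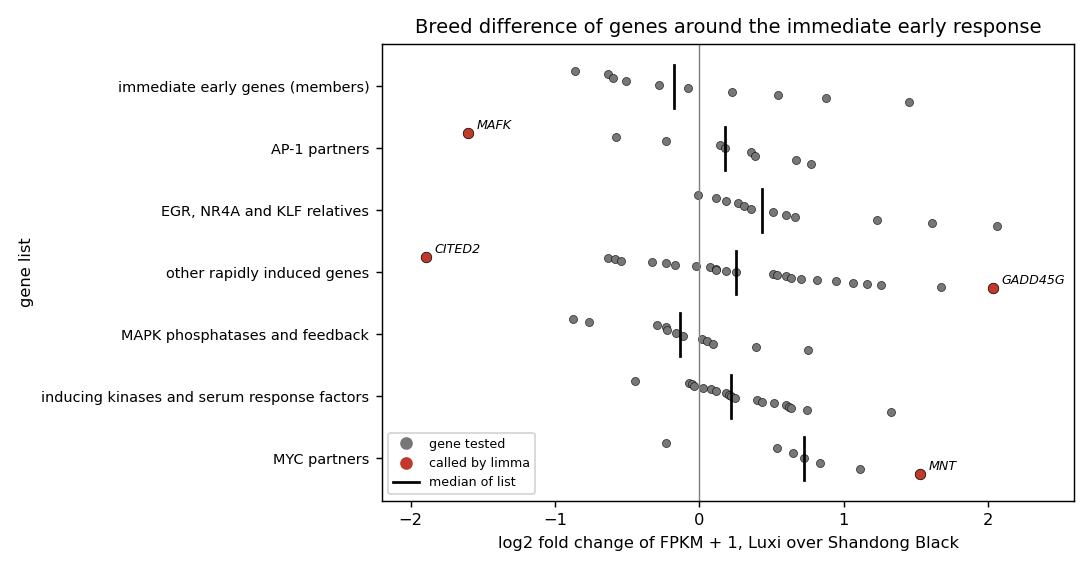
Log2 fold change of FPKM + 1, Luxi over Shandong Black cattle, for the members and the 84 tested genes of the 6 pathway lists. Each point is a gene, red points were called by limma and are named (MAFK, CITED2, GADD45G and MNT), and vertical bars mark the median of each list, from -0.18 for the members to 0.72 for the MYC partners.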

How the data were processed

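RNA-Seq of 6 longissimus dorsi samples, 1 per animal, was used. The authors cleaned the reads by Fastp, used HISAT for alignment against ARS-UCD1.2, and assembled each library by StringTie with its strand option (version 1.3.3b per the file headers). The authors deposited coverage, FPKM and TPM for each transcript. A gene's FPKM was the sum over its reference transcripts and over unnamed assembled transcripts that lay on its exons, on the same strand, for 50% or more of their length. Transcripts outside genes held 21.9 to 30.8% of a library's FPKM, and a transcript not listed in an animal counted as 0. Whole reads were not used, so no count test was run.

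Genes that averaged 1 FPKM or more in either breed were tested with limma 3.58.1 (R 4.3.3; trend; log2(FPKM + 1), which understates the change of low genes; Benjamini-Hochberg). A call required an adjusted p-value under 0.05 together with a log2 fold change of 1 or more in size. Single members also had exact two-sided permutation tests. On simulated data for the 9767 genes of this comparison, 68.5% of 200 genes that were shifted by 1.5 on the log2 scale were called. The shifted genes were drawn from all genes and each had the same SD in both breeds. This share therefore does not hold for members with a wide Luxi spread. Alternatives were a pseudocount of 0.1, no filter, a mean of at least 5 FPKM, TPM, size factors, reference transcripts only, no trend, a replicate block, a threshold of 2 and leaving out each animal. Any overlap for assembled transcripts, and TPM or size factors without the Luxi cattle replicate 1, were added after the data were seen, as were the spread and correlations of the members without that animal.

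The members and the pathway and marker lists were chosen with earlier results of these data known. All members are named, with the called, the 2 highest and the 2 lowest genes of each pathway list, the marker sums and the 5 genes most like the members' mean profile. CCN1, CCN2 and MRTFB carry older symbols in the files. Promoter sequences were not analysed here, and Cuffdiff, which the authors used, was not run.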

Additional observations from a re-analysis of the deposited data

How the results depend on the processing

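Of 175 values of the 10 members under an alternative, 165 kept their direction and stayed without a call, 4 became called and 6 turned. A value could pass 1 in size without a call, as FOS did at -1.17 without the Luxi cattle replicate 3. Some alternatives (no filter, a mean of at least 5 FPKM, no trend, the replicate block and the threshold of 2) cannot move a log2 fold change. JUNB (1.19) and NR4A1 (2.22) were called without the Luxi cattle replicate 1, and NR4A1 also without it in TPM (1.99) and with size factors (2.02), so that the count of members called was 2, 1 and 1 in these 3 fits, against 0 in the others. On leaving out 1 animal the log2 fold change ran from -0.13 (without the Luxi cattle replicate 3) to 1.10 for FOSB, from -0.34 (without the Luxi cattle replicate 3; -0.16 without replicate 2) to 1.19 for JUNB, and from -0.44 to 0.19 (without the Luxi cattle replicate 1; 0.023 without replicate 2) for IER2, which was also at 0.023 with size factors without the Luxi cattle replicate 1. Over all genes the 252 calls became 63 without a filter on FPKM, 137 at a mean of at least 5 FPKM, 163 with reference transcripts only and 67 at a log2 fold change of at least 2. Leaving out 1 animal gave 3 (without the Shandong Black cattle replicate 3) to 600 calls (without the Luxi cattle replicate 1), and without the latter 499 in TPM and 466 with size factors. Of the calls 59.9% were higher in Luxi cattle, against 43.4% with size factors. In the pathway lists the 4 calls became 1 without a filter, 2 at a mean of at least 5 FPKM, 1 at a log2 fold change of at least 2, 0 to 13 on leaving out 1 animal, and without the Luxi cattle replicate 1 also 7 in TPM and 8 with size factors. EGR2 was not tested with reference transcripts only, at a mean of at least 5 FPKM or without the Shandong Black cattle replicate 1 or 3, nor IER2 at a mean of at least 5 FPKM. The causes of these shifts were not tested.

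Same-numbered animals are different animals, and their deviations from the breed means correlated at 0.0775 to 0.0886, so the numbers were not taken as pairs, although every animal correlated best with the one of its own number, which is a hint from the data and not the design. A fit with the replicate block gave 135 calls over all genes, 1 in the pathway lists and 0 among the members. With 3 animals a breed, a difference in a member has to be large against a Luxi spread that was wide for 6 of the 10 (2 of the 10 without replicate 1), and depth was lower in Shandong Black cattle throughout.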
